A study of Rattus norvegicus with 12 samples.

Results

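The corpus luteum (CL) reached at day 16 of pregnancy after 4 days of an aromatase inhibitor given together with estradiol (AI+E2) was described across all genes against the untreated CL of day 12. The labels chose the 6 arrays, 3 AI+E2 and 3 Day 12, of 12 in the series. All animals were pregnant Wistar rats, with the luteal RNA of 1 animal on each Affymetrix Rat Gene 1.0 ST array. AI+E2 rats received anastrozole (AI, 1 mg/kg by mouth each day) from day 12 plus E2 (10 µg/day under the skin, per the labels) and were killed on day 16. AI rats received the same inhibitor alone and VEH rats the vehicle over the same 4 days (3 arrays each), and Day 12 rats received nothing. AI+E2 and Day 12 thus differ in the day of pregnancy, in AI, in injected E2 and in the handling that dosing and injection bring. The parts that these take in a difference cannot be told apart from these 2 groups alone. VEH, which is also day 16, is the group that separates the AI+E2 state from the ordinary day 16 state. For VEH rats the paper describes a vehicle by mouth and mentions no injection, so injection may differ there too.

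In the pregnant rat the CL makes progesterone (P4), which keeps the pregnancy, and also makes its own E2: luteal aromatase turns androgens, which largely reach it from the placenta in the second part of gestation, into E2. Within the gland E2 acts together with prolactin-like hormones on luteal cell growth, cholesterol supply and the blood vessels. P4 leaves the tissue as such or is turned into an inactive metabolite by 20alpha-hydroxysteroid dehydrogenase, the enzyme that is held low by prolactin and climbs before birth.

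Levels below are log2 signals, so that a difference of 1 is a 2-fold change, and a gene "rose" or "fell" in AI+E2 where limma gave an adjusted p under 0.05 against Day 12 over the 14509 genes tested. Since an array of whole tissue was used, fewer cells of a type and less RNA per cell cannot be told apart. The luteal label was borne out by the levels of its defining markers: Star, Cyp11a1, Lhcgr and Scarb1 stood at 12.25 to 13.01 in all 12 arrays, against an array median of 6.51 to 6.56. Markers of periovarian fat (0 of 10 measured) and of oviduct or ovarian surface epithelium (0 of 9) did not pass the test in AI+E2 against Day 12.

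One array, Day 12 replicate 2, stood apart from its group. Over all genes its mean correlation with the other arrays of its group was the lowest in the series, at 0.9921. Its deviations from the group mean were the widest, with an SD of 0.12. Genes outside immunity took part, such as Akr1c3 and Inha, whose levels are given below. In Day 12 replicate 2 every one of the 30 measured interferon-stimulated genes, which cells switch on in answer to interferon, was higher than in the other 2 Day 12 arrays, by a median of 1.16. Their mean level was 8.16, 8.06 and 8.23 in the AI+E2 arrays, and 7.29, 8.68 and 7.35 in Day 12 replicates 1, 2 and 3. Counts of the immune gene lists against Day 12 are therefore given with and without Day 12 replicate 2, a choice made after seeing the data.

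AI+E2 differed from Day 12 in 1755 genes: 1091 rose (7.52% of those tested) and 664 fell (4.58%). Counts within gene lists below are to be read beside these shares, and a count near them does not set a list apart from all genes. At least 2-fold changes numbered 79, with 50 rises (0.345%) and 29 falls (0.2%), and 6 genes changed at least 4-fold. Of the 2-fold genes, 49 of 50 rises and 29 of 29 falls had AI+E2 arrays that did not overlap with the Day 12 arrays. These genes were picked by size and adjusted p on the same arrays, so the separation is no separate support for them. The direction of the smaller changes depended on scaling: 62.2% of the calls were rises in the deposited values, but 52.1% (1066 rises and 982 falls) once the arrays were quantile normalised again and 70.6% (1181 and 492) once each was centred on its median. The 2-fold split moved less, at 63.3%, 60% and 67.9% rises. Leaving out AI+E2 replicate 1 cut the count to 1123 (698 rises and 425 falls), more than leaving out any other array did.

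**Figure D1:**
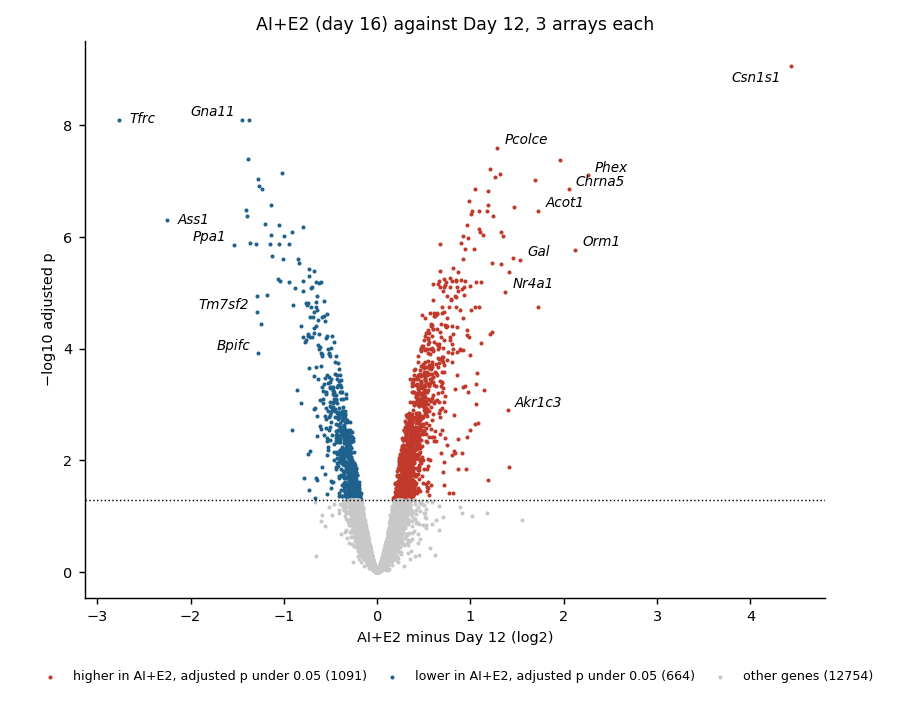
Each point is 1 gene, with the AI+E2 minus Day 12 difference of group means (log2) on the x axis and −log10 of the limma adjusted p on the y axis. Red points rose in AI+E2 (1091), blue points fell (664), and the dotted line marks an adjusted p of 0.05. Csn1s1 stands alone at the right with a difference of 4.44, and Tfrc and Ass1 stand at the left with −2.77 and −2.25.

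The largest rise of all was in Csn1s1, which encodes alphaS1-casein, a milk protein. Its level was 9.91, 9.81 and 10.10 in AI+E2, against 5.30, 5.74 and 5.47 on Day 12, a 21.7-fold rise (log2 difference 4.44 ± 0.16 SE, adjusted p = 8.7e-10 by limma). The other day 16 groups stayed far below it, with 5.92, 5.97 and 5.61 in AI and 6.18, 6.80 and 6.92 in VEH. AI+E2 was 9.9-fold above VEH (adjusted p = 4.5e-09), and VEH was itself above Day 12 by 1.13 (adjusted p = 0.00034). Phex, a membrane endopeptidase known from phosphate handling in bone, read 10.14, 10.11 and 10.22 in AI+E2 and 7.96, 7.51 and 8.24 on Day 12 (difference 2.26, adjusted p = 7.9e-08). Orm1, the acute-phase plasma protein orosomucoid, read 8.30, 8.07 and 8.37 in AI+E2 and 5.80, 6.44 and 6.14 on Day 12 (4.35-fold, adjusted p = 1.7e-06). The 20 largest rises, given in this and the next paragraph, were picked among genes whose AI+E2 arrays lay above every Day 12 array. That separation is thus part of the rule and not a result.

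Chrna5, a subunit of the nicotinic acetylcholine receptor, reached 8.25, 8.29 and 8.37 in AI+E2 against 6.46, 5.99 and 6.30 on Day 12 (2.05, adjusted p = 1.4e-07). Gal, the neuropeptide galanin, reached 7.75, 7.74 and 7.57 against 6.34, 6.09 and 6.02 (1.54, adjusted p = 2.6e-06). Rasd1, a Ras-like G protein induced by steroids, rose by 1.46, Rasgrp1, an activator of Ras, by 1.32, and Rgs2, which shuts off signals of Gq proteins, by 1.32. Pla2g7, the secreted enzyme that inactivates platelet-activating factor, rose by 1.47, Mfge8, which bridges dying cells to phagocytes, by 1.26, Ada, adenosine deaminase, by 1.32, and Pcolce, which speeds collagen processing, by 1.28. Acot1, an acyl-CoA thioesterase, rose by 1.73, although its near-identical neighbour Acot2 (1.02) may share its probes. Zfp347, Tmem178a, Lrrc1, Lhfpl1 and the complement component C6 rose by 1.73, 1.69, 1.41, 1.96 and 1.34. With Akr1c3 and Nr4a1, described below, they complete the 20 largest rises among genes whose groups did not overlap. Oas1b, also described below, rose more than several of them, but its groups overlapped.

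The largest fall was in Tfrc, the transferrin receptor through which cells take up iron. It read 6.18, 6.20 and 6.38 in AI+E2 against 8.87, 9.23 and 8.97 on Day 12, a log2 difference of −2.77 ± 0.13 (SE; adjusted p = 8e-09), and 8.92, 8.26 and 8.57 in VEH. Ass1, argininosuccinate synthase of the urea cycle and arginine synthesis, read 8.45, 8.32 and 8.38 in AI+E2 against 10.41, 10.93 and 10.55 on Day 12 (−2.25, adjusted p = 5e-07). In VEH the same gene was above Day 12, at 11.31, 11.38 and 10.92, so that AI+E2 lay below VEH (−2.83, adjusted p = 2.8e-08). Ppa1, the cytosolic pyrophosphatase, read 8.05, 7.91 and 8.15 in AI+E2 against 9.70, 9.19 and 9.83 on Day 12, and Gna11, a G protein subunit that couples receptors to phospholipase C, read 8.34, 8.18 and 8.22 against 9.57, 9.79 and 9.71. Their differences were −1.54 and −1.44. These 4 genes were picked among those whose AI+E2 arrays lay wholly below the Day 12 arrays.

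The rest of the 20 largest falls held Bcat1, which starts the breakdown of branched-chain amino acids (−1.26), Chka, choline kinase (−1.24), Nampt of NAD synthesis (−1.24), Elovl6, which lengthens fatty acids (−1.37), Cyp2u1, a fatty acid hydroxylase (−1.18), Miox, which breaks down inositol (−1.15), the mitochondrial carrier Slc25a30 (−1.20), and the sterol enzymes Fdft1 and Tm7sf2. Nr1d1, a repressor of the circadian clock, fell by 1.39 and Nr0b2, an orphan receptor that holds back other nuclear receptors, by 1.30. Net1 fell by 1.38, Slc35g1 by 1.37, Rab33a by 1.29, Bpifc by 1.28, and Gpr183, a receptor for oxysterols, by 1.28. Having AI+E2 arrays wholly below the Day 12 arrays was part of the rule by which these falls were picked.

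VEH differed from Day 12 in 1472 genes, with 1003 higher (6.91%) and 469 lower (3.23%), and AI+E2 differed from VEH in 1888 genes, with 886 higher (6.11%) and 1002 lower (6.91%). Of the VEH calls 68.1% were rises in the deposited values and 56.2% after a new quantile normalisation. All of these contrasts share arrays, so each is given with its own values only, and AI+E2 against VEH is the test of whether the change from Day 12 differed between AI+E2 and VEH. The count of AI+E2 against VEH was 1253 without AI+E2 replicate 1.

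One set of genes was picked because it passed the test in AI+E2 against both Day 12 and VEH but not in VEH against Day 12, so their pattern is a description. Chrna5 read 6.59, 6.09 and 6.49 in VEH, 1.91 below AI+E2 and 0.14 above Day 12 (adjusted p = 0.59). Galanin was 1.22 higher in AI+E2 than in VEH, Lrrc1 1.56, Tmem178a 1.53, Pla2g7 1.21, Mfge8 1.14, Nr4a1 1.06 and Rgs2 0.99. Of the falls, Ppa1 was 1.62 lower in AI+E2 than in VEH, Gna11 1.49, Cyp2u1 1.55, Slc25a30 1.41, Gpr183 1.38, Slc35g1 1.18, Bpifc 1.05 and Chka 0.87. Of these 16 genes 8 also passed the test in AI against Day 12 in the same direction, Chrna5 (0.54), Tmem178a (1.17), Mfge8 (0.45), Ppa1 (−1.21), Gna11 (−0.63), Cyp2u1 (−0.71), Gpr183 (−0.76) and Slc35g1 (−0.59), and Bpifc passed it in the opposite one (0.82). Over all 14509 genes AI differed from Day 12 in 1101 (7.59%), with 480 higher and 621 lower.

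A second set was picked because it passed the test in VEH against Day 12 and in AI+E2 against VEH, with opposite signs, but not in AI+E2 against Day 12: genes that moved in the ordinary passage to day 16 and stood near their Day 12 level in AI+E2. Kcnq1, a potassium channel subunit, read 7.0, 6.86 and 6.87 in AI+E2, 8.67, 8.91 and 8.56 in VEH and 6.72, 6.74 and 6.74 on Day 12. Cdkn2c, an inhibitor of the cyclin D kinases, read 6.90, 6.85 and 7.04 in AI+E2, 8.47, 8.63 and 8.82 in VEH and 7.03, 6.96 and 7.0 on Day 12, so that AI+E2 and Day 12 overlapped (−0.07, adjusted p = 0.74). Gnmt, glycine N-methyltransferase, was 1.86 above Day 12 in VEH and 0.52 in AI+E2 (adjusted p = 0.075), and Mal2, Rab27a and Cd80, a T cell costimulator, were 1.44, 1.32 and 1.28 above Day 12 in VEH and −0.01, −0.07 and 0.31 from it in AI+E2. Mfap3l and the fibrinogen chain gene Fgg stood 1.47 and 1.62 above Day 12 in VEH, and Fgg read 8.03 in Day 12 replicate 2 but 6.77 and 6.88 in the other 2.

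The genes of this kind that were lower in VEH held enzymes and carriers of lipids. Fdps, which makes farnesyl diphosphate on the way to cholesterol, read 10.98, 10.88 and 10.87 in AI+E2, 9.40, 9.59 and 9.58 in VEH and 11.01, 11.13 and 11.15 on Day 12. Acly, which supplies acetyl-CoA for lipid synthesis, read 9.22, 9.10 and 9.14 in AI+E2, 8.31, 8.33 and 8.29 in VEH and 9.21, 9.17 and 9.34 on Day 12. The desaturase Fads1 and the fatty acid carrier Slc27a6 were 1.05 and 1.01 below Day 12 in VEH, against −0.10 and 0.10 in AI+E2. The sodium channel subunit Scnn1b, the calcium-binding protein Calb2, the protease inhibitor Pzp and the potassium channel Kcnq5 were 1.26, 1.12, 1.02 and 0.92 below Day 12 in VEH. Their AI+E2 differences from Day 12 ran between −0.31 and 0.43 and none passed the test, which does not show that the levels were equal.

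**Figure D2:**
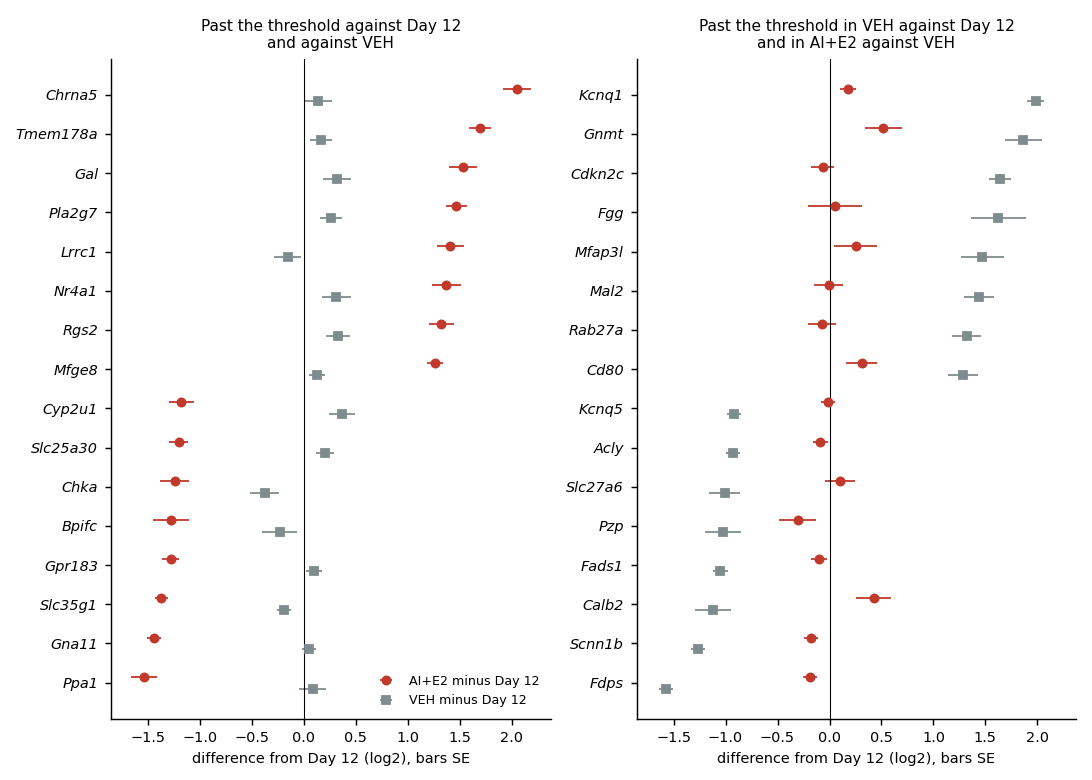
Differences from Day 12 (log2, x axis; bars, SE of the limma fit) of AI+E2 (red circles) and VEH (grey squares), 3 arrays per group, for the genes picked by the rules above; left, genes past the threshold in AI+E2 against Day 12 and VEH but not in VEH against Day 12, and right, genes past it in VEH against Day 12 and in AI+E2 against VEH but not in AI+E2 against Day 12. At the left Chrna5 sits at 2.05 in AI+E2 and 0.14 in VEH, and at the right Kcnq1 sits at 0.18 in AI+E2 and 1.98 in VEH.

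Genes of cholesterol synthesis fell together. Of 17 measured enzymes of the mevalonate and sterol pathway 14 fell and none rose, with a median difference of −0.49, against −0.03 over all genes. Fdft1, which joins farnesyl groups into squalene, read 9.82, 9.75 and 9.89 in AI+E2 against 11.10, 11.46 and 11.13 on Day 12 (−1.41, adjusted p = 3.3e-07). Sqle, the rate-limiting squalene epoxidase, read 8.79, 8.72 and 8.80 against 9.89, 9.67 and 9.92 (−1.06, adjusted p = 6.1e-07), and Tm7sf2, a sterol reductase, read 8.21, 8.13 and 8.13 against 9.61, 8.99 and 9.75 (−1.29). Nsdhl and Acat2 fell by 0.77 and 0.63. With any 1 array left out 12 or 13 of the 17 fell, but by the t-test of the study's methods 6 did.

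The fall was smaller than in VEH. The mean level of the 17 genes was 9.62, 9.54 and 9.61 in AI+E2, 10.64, 10.68 and 10.55 in AI, 8.81, 8.70 and 8.86 in VEH and 10.15, 10.11 and 10.23 on Day 12, so that AI+E2 lay between VEH and Day 12 with no overlap on either side. In AI+E2 against VEH 13 of 17 were higher and 2 lower (median 0.86), and in VEH against Day 12 15 of 17 were lower (median −1.38). The 2 exceptions were Fdft1, 0.39 lower in AI+E2 than in VEH (adjusted p = 0.015), and Mvk, mevalonate kinase, 0.29 lower. The sterol response element TCACNCCAC was found in none of the 14 pathway promoters that RefSeq's table for build GRCr8 held (300 bases each, both strands), against 1.13% of 27457 promoters, and these letters are not the only form that the element takes.

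Of 10 measured genes of sterol sensing and lipoprotein uptake 2 rose and 2 fell. Insig1, which holds the sterol sensor in the endoplasmic reticulum and is itself switched on when sterols run low, read 10.58, 10.56 and 10.56 in AI+E2 against 11.61, 11.67 and 11.82 on Day 12 (−1.13, adjusted p = 2.7e-07), and 9.94, 9.87 and 10.13 in VEH. Srebf2, the transcription factor of the pathway, fell by 0.25. Npc2, which carries cholesterol out of lysosomes, rose by 0.36, and lysosomal lipase Lipa by 0.31, a call lost without AI+E2 replicate 3. Among 15 genes of lipid droplets, cholesterol esters and efflux 3 rose and none fell: Abhd5, the activator of fat breakdown (0.73), Abca1, the cholesterol exporter (0.60), and Soat1, which makes cholesterol esters (0.43).

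Fatty acid genes split by role. Of 15 genes of fatty acid synthesis and desaturation 3 fell, Elovl6 (7.42, 7.34 and 7.58 in AI+E2 against 8.65, 9.06 and 8.73 on Day 12), Scd (−0.74) and Fasn (−0.29, lost without AI+E2 replicate 3), and 1 rose, Scd2, by 0.20, a call lost without any of 5 single arrays. Of 22 genes of fatty acid oxidation and PPAR targets 7 rose and none fell, with a median of 0.10. Besides the thioesterases they held Angptl4, an inhibitor of lipoprotein lipase, at 9.50, 9.24 and 9.28 in AI+E2 against 8.24, 7.96 and 8.47 on Day 12 (1.12, adjusted p = 8e-05), and Pdk4, which turns cells from glucose to fat, at 6.84, 6.87 and 7.10 against 6.07, 6.15 and 6.29 (0.77, adjusted p = 1.8e-05). Pdk4 was also 0.64 higher than in VEH, where it did not pass the test against Day 12.

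The first steps of P4 synthesis did not pass the test, while the gene that inactivates P4 rose. Star, which brings cholesterol into mitochondria, read 12.73, 12.71 and 12.70 in AI+E2 against 12.72, 12.72 and 12.70 on Day 12, and Cyp11a1, which makes pregnenolone, read 12.80, 12.77 and 12.72 against 12.65, 12.59 and 12.72 (0.00 and 0.11). Star turned to a fall of 0.16 (adjusted p = 0.038) after a new quantile normalisation. Fdx1, which hands electrons to Cyp11a1, rose by 0.65 (11.30, 11.21 and 11.39 in AI+E2 against 10.65, 10.52 and 10.80 on Day 12, adjusted p = 2.3e-05), whereas in VEH it was 0.60 below Day 12. Por, the P450 reductase (−0.41), Stard3 (−0.30) and Hsd3b2 (−0.35) fell, the last with near-identical paralogs and a call lost without any of 3 single arrays, so that 1 of 7 genes of P4 synthesis rose and 3 fell.

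Akr1c3, the gene of rat 20alpha-hydroxysteroid dehydrogenase (older symbol Akr1c18), read 10.70, 10.56 and 10.83 in AI+E2 against 8.98, 9.95 and 8.96 on Day 12 (1.40 ± 0.24 SE, 2.64-fold, adjusted p = 0.0013). The AI+E2 arrays lay above all the others of the series: AI read 7.76, 8.10 and 8.67 and VEH 6.23, 6.63 and 6.79. VEH was thus 2.75 below Day 12 (adjusted p = 3.2e-06) and AI+E2 4.14 above VEH (17.7-fold, adjusted p = 2.8e-08). Without Day 12 replicate 2, where Akr1c3 read 9.95, its difference of AI+E2 from Day 12 was 1.725. Its family has close copies, so probes may be shared. Akr1c14, a 3alpha-hydroxysteroid dehydrogenase, rose by 0.53 in AI+E2, and VEH was 0.79 above Day 12. Srd5a3 rose by 0.28, a call lost without any of 5 single arrays, and Hsd11b1 and Hsd11b2 did not pass the test, so that 3 of 5 genes rose.

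Of the 9 genes of estrogen and androgen synthesis Cyp17a1 alone changed. This androgen-making enzyme read 7.40, 7.33 and 7.63 in AI+E2 against 7.98, 7.70 and 7.95 on Day 12 (−0.43, adjusted p = 0.0075), but 10.86, 10.98 and 10.73 in AI. Aromatase, Cyp19a1, the target of the inhibitor, read 11.30, 11.25 and 11.27 in AI+E2 and 11.36, 11.55 and 11.45 on Day 12 (−0.18, adjusted p = 0.069), against 12.08, 12.09 and 12.11 in VEH. VEH was 0.64 above Day 12 and AI+E2 0.82 below VEH (adjusted p = 3.1e-07). After a new quantile normalisation 3 of the 9 fell. None of 6 genes of estrogen inactivation passed the test, nor did any of 13 estrogen receptors and coregulators: Esr1 differed by −0.15 (adjusted p = 0.38) and Esr2 by 0.15 (adjusted p = 0.53).

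**Figure D3:**
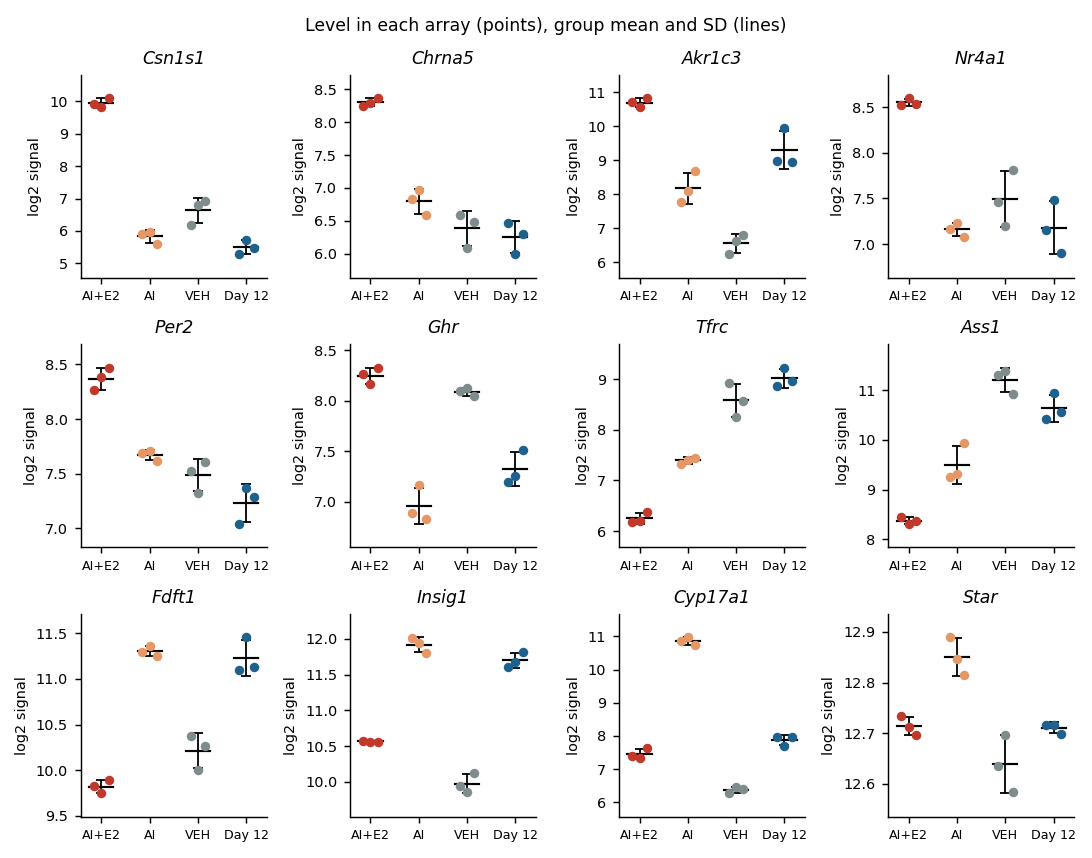
Levels (log2 signal, y axis) of 12 genes in each array, with AI+E2, AI, VEH and Day 12 from left to right; points are arrays (3 per group) and lines are the group mean ± SD, and each panel has its own scale. Csn1s1, Chrna5, Akr1c3, Nr4a1 and Per2 are highest in AI+E2 and Tfrc, Ass1 and Fdft1 lowest, whereas Ghr shares its level with VEH and Star spans only 12.58 to 12.89 over all groups.

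Textbook estrogen-induced genes did not rise as a group: 3 of 18 rose and 4 fell, with a median of −0.02. The rises were Igf1 (0.69), Car12, a carbonic anhydrase (0.46), and Cxcl12, a chemokine (0.25). The falls were Ccnd1, described below, Vegfa, the angiogenic factor (9.81, 9.76 and 9.86 in AI+E2 against 10.33, 10.45 and 10.36 on Day 12, −0.57, adjusted p = 2.6e-05), Xbp1, a transcription factor of secretory cells (−0.38), and Rara, a retinoic acid receptor (−0.64). Vegfa was higher in VEH than on Day 12 (0.27) and lower in AI+E2 than in VEH by 0.84 (adjusted p = 4.4e-07). Of 15 luteal transcription factors 2 fell, Nr0b2 and Runx2 (−0.35), and none rose. Nr5a2, a driver of luteal steroid genes, differed by −0.11 and did not pass.

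Among 19 genes of prolactin and luteinizing hormone signalling 5 rose and 1 fell. Rgs2 read 8.07, 7.89 and 8.17 in AI+E2 against 6.63, 6.87 and 6.67 on Day 12, and Ghr, the growth hormone receptor, read 8.26, 8.16 and 8.32 against 7.20, 7.26 and 7.51 (0.93, adjusted p = 7.8e-06). Ghr was about as high in VEH, at 8.09, 8.12 and 8.04, and the difference of 0.16 between AI+E2 and VEH did not pass the test (adjusted p = 0.33). Gnas, the Gs subunit below the LH receptor, and A2m, a prolactin-driven protease inhibitor of the rat CL, rose by 0.28 and 0.27, the first lost where a gene's probe sets were averaged. The receptors themselves, Lhcgr (0.17) and Prlr (0.10), did not pass the test.

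Casein genes are classic prolactin targets, switched on through STAT5, and only 1 of the 9 measured milk protein genes rose. Csn2 read 6.27, 6.42 and 6.32 in AI+E2 against 6.42, 6.47 and 6.42 on Day 12, and Csn1s2a read 5.65, 5.69 and 5.69 against 5.65, 5.65 and 5.61. Csn3, Wap, Lalba, Lpo, Btn1a1 and Glycam1 differed by between −0.13 and 0.02 and none passed the test.

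The promoters of the 3 casein genes are printed because the gene that rose and 2 that did not carry the same motif at about the same place. They come from RefSeq's table for build GRCr8, run 5′ to 3′ in the direction of the gene from 250 bases before the start to 50 after it, and capitals mark the STAT5 motif TTCNNNGAA, searched on both strands. They lie on chromosome 14, at chr14:20638800-20639099 (minus strand) for Csn1s1, chr14:20574422-20574721 (minus strand) for Csn1s2a and chr14:20601574-20601873 (plus strand) for Csn2.
Csn1s1: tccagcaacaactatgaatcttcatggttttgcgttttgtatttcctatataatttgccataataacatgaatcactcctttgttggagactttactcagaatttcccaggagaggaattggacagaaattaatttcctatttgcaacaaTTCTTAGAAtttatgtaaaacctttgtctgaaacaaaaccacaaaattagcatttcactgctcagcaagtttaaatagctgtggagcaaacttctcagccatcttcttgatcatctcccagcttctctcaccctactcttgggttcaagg
Csn1s2a: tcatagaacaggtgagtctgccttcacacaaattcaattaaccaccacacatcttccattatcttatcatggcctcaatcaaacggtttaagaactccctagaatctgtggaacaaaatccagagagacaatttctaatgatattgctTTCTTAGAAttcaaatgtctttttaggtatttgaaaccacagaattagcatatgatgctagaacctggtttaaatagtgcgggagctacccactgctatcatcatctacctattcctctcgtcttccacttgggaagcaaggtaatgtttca
Csn2: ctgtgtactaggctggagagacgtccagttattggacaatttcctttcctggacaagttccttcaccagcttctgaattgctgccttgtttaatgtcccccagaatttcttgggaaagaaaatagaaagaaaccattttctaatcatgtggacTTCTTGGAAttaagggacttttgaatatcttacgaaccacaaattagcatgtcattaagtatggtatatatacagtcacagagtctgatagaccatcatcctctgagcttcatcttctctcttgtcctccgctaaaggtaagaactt
The motif began 100 bases before the start in Csn1s1, 102 in Csn1s2a and 97 in Csn2, and 175 in Glycam1, so 4 of 9 milk protein promoters held it, against 8.68% of all 27457 promoters of that length. Csn1s1 was 4.44 higher in AI+E2 than on Day 12, whereas Csn1s2a and Csn2 differed by 0.04 and −0.10 and did not pass the test.

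Of 17 genes of the IGF system 3 rose and 2 fell: Igf1 read 10.20, 10.09 and 10.11 in AI+E2 against 9.31, 9.54 and 9.47 on Day 12 (0.69, adjusted p = 0.00014), and Pappa, the protease that frees IGF from its binding proteins, read 7.47, 7.62 and 7.56 against 8.26, 8.53 and 8.42 (−0.85, adjusted p = 2.5e-06). Igf1r fell by 0.31, and Igfbp5 differed by 0.29 without passing (adjusted p = 0.056), although in AI it stood 1.04 above Day 12. Stc1, the secreted peptide stanniocalcin, rose by 0.82. Of 18 genes of the PI3K pathway 3 rose, Ddit4, an inhibitor of mTOR (9.63, 9.64 and 9.68 in AI+E2 against 8.80, 8.33 and 8.88 on Day 12), Sgk1 (0.56) and Akt1 (0.33), and 1 fell.

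Relaxin, Rln1, the main peptide hormone of the gland, read 12.68, 12.61 and 12.61 in AI+E2 against 12.32, 12.37 and 12.30 on Day 12 (0.30, adjusted p = 0.0035), about the same as in VEH (0.27), and the call was lost after a new quantile normalisation. Together with Mdk, midkine (0.73), it made the 2 rises among 25 luteal hormones, peptides and receptors, beside 7.52% rises over all genes. The 2 falls, Agt and Apln (−0.26 and −0.66), were each lost without any of 5 single arrays. Of 27 inhibin, activin and BMP genes 4 rose and 1 fell, among them Fst, follistatin, which binds activin (0.72, and 1.13 above VEH), and Id3 (0.57). Inha, the inhibin alpha chain, read 9.89, 9.69 and 9.76 in AI+E2 and 10.13, 8.81 and 10.31 on Day 12, so that the groups overlapped.

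WNT genes had 2 rises and 2 falls of 23, beside 7.52% rises and 4.58% falls over all genes. The largest was Fzd8, a receptor, at 8.66, 8.62 and 8.61 in AI+E2 against 7.82, 7.61 and 7.94 on Day 12 (0.84, adjusted p = 6.2e-06), and Wnt5a fell by 0.34. The EGF receptor Egfr was the 1 gene of 12 of its family that changed, a rise of 0.47. Of 18 VEGF and angiopoietin genes 2 fell, Vegfa and Vegfb (−0.31, lost without any of 4 single arrays), and none rose. In VEH 6 of these 18 were above Day 12 and 1 below, and AI+E2 was below VEH in 8 and above it in 2.

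Immediate early genes, which cells switch on within minutes of a signal, rose in 7 of 22 cases and fell in none, with a median of 0.13. Nr4a1, an orphan receptor induced by gonadotropins, read 8.52, 8.60 and 8.53 in AI+E2 against 7.15, 7.49 and 6.90 on Day 12 (1.37, adjusted p = 9.6e-06). Dusp6, a MAP kinase phosphatase, rose by 0.70, Junb by 0.65 and Ier3 by 0.50, and each was also higher than in VEH, by 0.61, 0.50 and 0.56. In VEH against Day 12 none of the 22 passed the test, or 2 without Day 12 replicate 2. With any 1 array left out the number of rises stayed between 6 and 8, but by the t-test of the study's methods it was 2.

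Clock genes moved in both directions: 6 of 15 rose and 2 fell. Per2 read 8.26, 8.39 and 8.46 in AI+E2 against 7.04, 7.37 and 7.28 on Day 12 (1.14, adjusted p = 9.1e-07), and Nr1d1, which represses Bmal1, read 8.09, 8.0 and 8.17 against 9.33, 9.62 and 9.49. Bhlhe40 and Nfil3, both repressors, rose by 0.94 and 0.52, and Tef, an activator at the same sites as Nfil3, by 0.38, a gene named after its values were seen. VEH lay 0.25 above Day 12 in Per2 (adjusted p = 0.094) and 0.63 below it in Nr1d1. The hour of day at which animals were killed is not stated in the labels or methods, and its part in these levels was not tested.

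Nfil3, a repressor, and Tef, an activator, both act at D-boxes and both rose, and their part in the rise of Per2 was not tested. The Per2 promoter is printed because it was the only 1 of 14 clock gene promoters with the D-box TTATGTAA, which 0.881% of all 27457 promoters held. It lies at chr9:99496944-99497243 (build GRCr8, RefSeq; minus strand) and runs as above, with the D-box, which begins 192 bases before the start, in capitals; the match describes these letters only.
Per2: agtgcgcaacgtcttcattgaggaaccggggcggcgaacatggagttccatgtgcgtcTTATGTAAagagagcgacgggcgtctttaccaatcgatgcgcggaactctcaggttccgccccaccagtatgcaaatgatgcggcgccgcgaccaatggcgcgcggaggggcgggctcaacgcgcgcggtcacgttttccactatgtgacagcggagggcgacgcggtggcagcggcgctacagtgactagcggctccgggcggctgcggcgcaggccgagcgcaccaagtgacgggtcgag

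Of 30 antioxidant and glutathione genes 15 rose and 1 fell, with a median of 0.23. Sod3, the extracellular superoxide dismutase, read 9.08, 9.07 and 8.88 in AI+E2 against 8.09, 8.01 and 8.11 on Day 12 (0.94, adjusted p = 1.6e-06), Prdx6, a peroxiredoxin, read 11.19, 11.01 and 11.24 against 10.38, 10.39 and 10.55 (0.70), and Mgst1, a glutathione transferase, rose by 0.72 and Hmox1, heme oxygenase, by 0.40. Sod3, Prdx6 and Hmox1 were higher than in VEH too, by 0.57, 0.43 and 0.48, whereas Mgst1 was 0.41 lower. In VEH 6 of the 30 were above Day 12 and 3 below. With 1 array left out 11 to 16 rose, but by the t-test of the study's methods 4 did.

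Respiratory chain and ATP synthase subunits had 12 rises and 1 fall of 39, with a median of 0.15, among them Ndufb8 (0.72), Cox6a1 (0.50), Ndufs3 (0.49) and Atp5pb (0.46). The rises numbered 7 without AI+E2 replicate 1 and 8 without Day 12 replicate 1. Ndufb8 and Cox6a1 were also above Day 12 in VEH, by 0.71 and 0.53. Of 23 endoplasmic reticulum chaperone and stress genes 3 rose and 3 fell, and 8 fell after a new quantile normalisation. Creld2 (8.91, 8.79 and 8.84 in AI+E2 against 8.23, 8.29 and 8.35 on Day 12, 0.56) and Pdia6 (0.34) were among the rises and Trib3 (−0.38) among the falls.

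Amino acid and urea cycle enzymes had 5 rises and 7 falls of 25, and 3 rises without any 1 AI+E2 array or Day 12 replicate 1. Besides Ass1 and Bcat1, Oat, which turns ornithine over, read 8.84, 8.81 and 8.77 in AI+E2 against 9.39, 9.37 and 9.45 on Day 12 (−0.60), and Odc1, the first enzyme of polyamine synthesis, read 9.65, 9.57 and 9.68 against 9.96, 10.02 and 10.09 (−0.39, adjusted p = 0.00047). In VEH Odc1 was 1.12 above Day 12, so that AI+E2 lay 1.5 below VEH (adjusted p = 1.5e-09). Of 23 glycolysis and glucose uptake genes 5 fell and 1 rose, with Pfkfb3, which sets the pace of glycolysis, at 8.15, 7.85 and 8.16 in AI+E2 against 8.95, 8.79 and 9.14 on Day 12 (−0.90), and Slc16a1, the lactate carrier, at −0.77. Without Day 12 replicate 1 3 of the 23 fell.

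Iron genes moved around the fall of Tfrc: Ftl1, a ferritin chain, read 12.23, 12.21 and 12.09 in AI+E2 against 11.76, 11.74 and 11.79 on Day 12 (0.41, adjusted p = 0.0014) and Aco1, which binds the iron-responsive elements of Tfrc and ferritin messages, rose by 0.55. Of 14 iron genes 4 rose and 2 fell. Of 19 subunits of the vacuolar proton pump 4 fell and 2 rose. Atp6v0d2 read 7.10, 7.20 and 7.46 in AI+E2 against 8.09, 8.35 and 8.45 on Day 12 (−1.04, adjusted p = 6.2e-06) but 9.95, 9.90 and 9.85 in AI and 6.08, 5.90 and 5.88 in VEH, and Atp6v0a1 and Atp6ap2 fell by 0.66 and 0.60. Both rises were lost without AI+E2 replicate 1 or Day 12 replicate 2.

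Prostaglandin genes had 2 rises and 2 falls of 22, beside 7.52% rises and 4.58% falls over all genes. Of the falls 1 was left without AI+E2 replicate 1 or 3 or Day 12 replicate 2 or 3, and 0 without AI+E2 replicate 2. Ptges, a synthase of prostaglandin E2, read 9.72, 9.67 and 9.69 in AI+E2 against 8.59, 8.61 and 8.71 on Day 12 (1.06, adjusted p = 6.3e-06), with VEH at 9.46, 9.71 and 9.30 and AI at 9.68, 9.60 and 9.30, so all day 16 groups were high. Akr1b1, an aldose reductase that also makes prostaglandin F2alpha, rose by 0.82 and was 0.55 above VEH. Ptgfr, the receptor through which prostaglandin F2alpha ends the CL, differed by 0.22 and did not pass (adjusted p = 0.061).

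**Figure D4:**
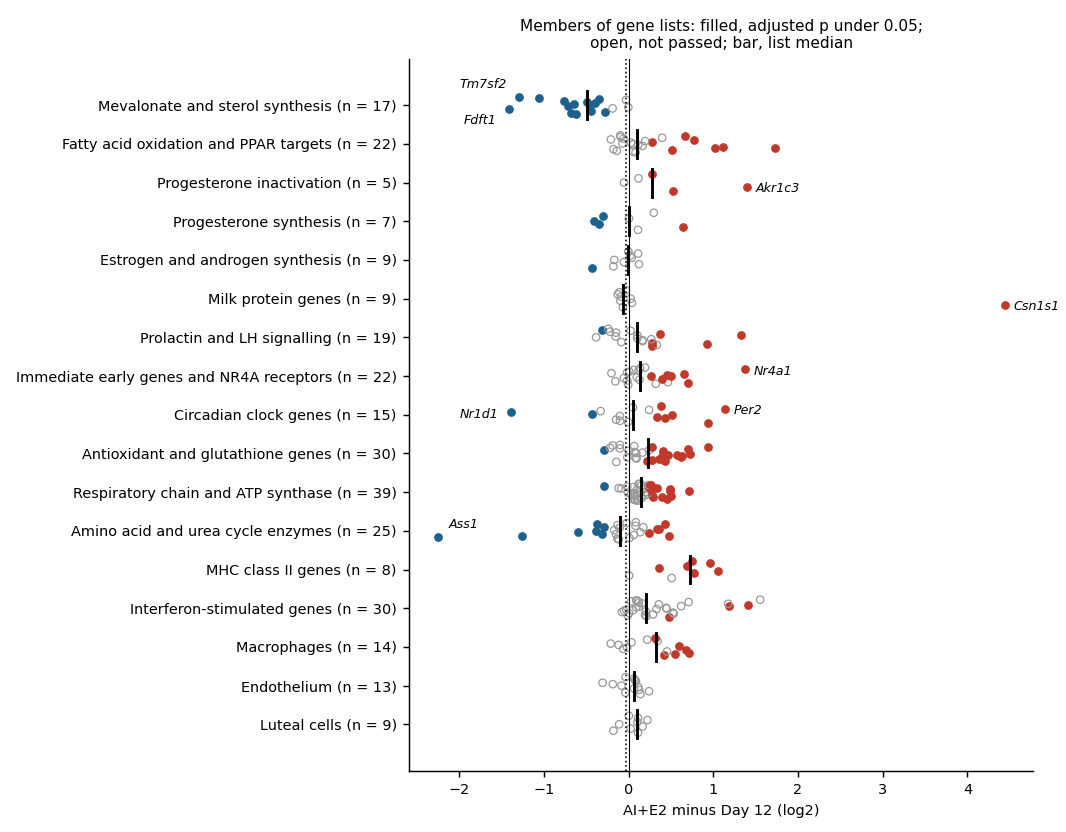
Differences of AI+E2 from Day 12 (log2, x axis) of the measured members of 17 gene lists; each circle is 1 gene, red where it rose, blue where it fell and open where it did not pass the test, and the black bar is the list's median. The dotted line is the median of all genes, −0.03. Sterol genes lie to the left (median −0.49) and MHC class II genes to the right (0.72), while Csn1s1 lies apart from the other 8 milk protein genes.

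Of 9 markers of luteal cells 0 passed the test, with a median of 0.10, and their mean level spanned 11.48 to 11.54 in AI+E2 and 11.36 to 11.55 on Day 12. After a new quantile normalisation 3 of the 9 fell. Markers of the vessels separated AI+E2 from VEH. Of 13 endothelial markers none passed the test against Day 12 (median 0.06), whereas 11 were above Day 12 in VEH (median 0.38) and 7 were lower in AI+E2 than in VEH (median −0.33). Flt1, a receptor of VEGF, read 8.65, 8.63 and 8.76 in AI+E2, 9.52, 9.39 and 9.34 in VEH and 8.71, 9.03 and 8.86 on Day 12. Their mean level was 8.4, 8.35 and 8.41 in AI+E2, 8.73, 8.74 and 8.72 in VEH and 8.29, 8.44 and 8.38 on Day 12, so that AI+E2 overlapped with Day 12 and not with VEH.

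Markers of the vessel wall and of fibroblasts were in part lower in AI+E2 than in VEH: 4 of 11 smooth muscle and pericyte markers (none higher) and 5 of 10 fibroblast markers, with 3 fibroblast markers higher, Lum (0.65), Dcn (0.63) and Pdgfra (0.27). Of the 11 smooth muscle and pericyte markers 1 rose against Day 12 in AI+E2 (Des, 0.39, lost without any of 4 single arrays) and 7 in VEH, and of the 10 fibroblast markers 2 rose in AI+E2, Lum (0.59) and Thy1 (0.29, lost without any of 4 single arrays), and 6 in VEH, but 1 in VEH without Day 12 replicate 2. Tagln read 9.35, 9.34 and 9.27 in AI+E2, 9.84, 10.19 and 9.61 in VEH and 9.04, 8.96 and 9.19 on Day 12. Of 32 collagen, laminin and matrix protease genes 9 rose and 2 fell in AI+E2 (4 rises without AI+E2 replicate 1 or 3 or Day 12 replicate 1), against 17 rises in VEH, and AI+E2 was below VEH in 13 and above it in 6. Serpine2, a protease inhibitor, read 9.01, 8.81 and 8.96 in AI+E2 against 7.92, 7.53 and 8.04 on Day 12 (1.10), the proteases Mmp19 and Adamts1 rose by 0.93 and 0.85, and Timp3, an inhibitor of them, fell by 0.56.

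Macrophage markers rose in 6 of 14 cases and fell in none (median 0.33), with 8 rises without Day 12 replicate 2 and 4 without replicate 1 or 3 of Day 12. C1qa, part of the complement complex C1 made by macrophages, read 8.79, 8.65 and 8.79 in AI+E2 against 7.96, 8.29 and 7.84 on Day 12 (0.72, adjusted p = 0.0002), and Cd68, a lysosomal protein of phagocytes, read 8.35, 8.15 and 8.28 against 7.64, 7.72 and 7.64 (0.59, adjusted p = 9.6e-05). Adgre1, a surface receptor of macrophages, rose by 0.42. Other markers did not rise: without Day 12 replicate 2 Csf1r, Itgam, Cd163 and Cd14 differed by −0.19, −0.24, −0.12 and −0.10, and none passed the test. In AI 3 of 14 rose against Day 12 (median 0.26), beside 480 rises over all 14509 genes. The mean level of the list was 7.816, 7.899 and 7.925 in AI, beside 7.937, 7.887 and 7.927 in AI+E2. In VEH 0 of 14 passed against Day 12 (median 0.01), or 1 without Day 12 replicate 2, and AI+E2 was above VEH in 6 (median 0.36).

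MHC class II genes, with which such cells present antigen, rose in 6 of 8 cases, by a median of 0.72, and in 7 of 8 without Day 12 replicate 2. RT1-DMb read 8.23, 8.21 and 8.02 in AI+E2 against 7.48, 7.5 and 7.41 on Day 12 (0.69, adjusted p = 0.00016), and RT1-Bb, RT1-Da and RT1-Db1 rose by 1.05, 0.96 and 0.75, with copies close enough that probes may be shared. Leaving out AI+E2 replicate 1 or 2 or Day 12 replicate 1 left 4 of 8. The mean of the list was 9.25, 9.25 and 9.21 in AI+E2, 9.06, 8.71 and 8.70 in VEH and 8.5, 8.75 and 8.54 on Day 12, and AI replicate 3 (9.19) stood above the other AI arrays (8.52 and 8.56). Against VEH 2 of the 8 were higher.

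Interferon-stimulated genes gave a count that 1 array decided. With all arrays 3 of 30 rose (median 0.21): Bst2, a tether of viruses at the cell surface, at 8.69, 8.55 and 8.60 in AI+E2 against 8.07, 8.19 and 8.16 on Day 12 (0.47, adjusted p = 0.00011), and Oas1b and Oas1a, near-identical antiviral synthetases (1.41 and 1.19, and 2.03 and 1.66 without Day 12 replicate 2). Both of the latter calls were lost without either of the low Day 12 arrays or AI+E2 replicate 3, and Oas1a also without AI+E2 replicate 1 or 2. Without Day 12 replicate 2 23 of 30 rose, with a median of 0.57, beside 986 rises over all genes. Usp18, Mx2 and Herc6, named after their values were seen, show the gap: Usp18 read 8.32, 8.0 and 8.5 in AI+E2 against 5.41, 8.93 and 5.81 on Day 12, Mx2 8.74, 8.53 and 8.77 against 7.0, 10.03 and 7.15, and Herc6 8.80, 8.67 and 8.87 against 7.35, 10.51 and 7.62. In VEH the list went the same way, with 0 of 30 above Day 12 with all arrays and 17 of 30 without that one, and AI+E2 was above VEH in 2 of 30 (median 0.31).

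Other immune genes rose in part. Of 27 complement, cytokine and chemokine genes 8 rose and none fell, with 3 left without AI+E2 replicate 1 or Day 12 replicate 1, 4 without AI+E2 replicate 3, 5 without Day 12 replicate 3 and 8 without Day 12 replicate 2. Cxcl14, a chemokine, read 8.05, 7.96 and 8.07 in AI+E2 against 7.08, 6.77 and 7.08 on Day 12 (1.05, adjusted p = 1.8e-05) and was 0.82 above Day 12 in VEH. Cxcl9, a chemokine induced by interferon, rose by 0.96 with all arrays and by 1.35 without Day 12 replicate 2, where it read 9.87, and the call was lost without Day 12 replicate 1 or 3 or AI+E2 replicate 1. Tnfsf10, the death ligand TRAIL, rose by 1.08, and by 1.41 without that array (8.65, 8.49 and 8.57 in AI+E2 against 7.07, 8.16 and 7.25 on Day 12). Of 14 lymphocyte markers 3 rose, and 4 without Day 12 replicate 2, with Cd4, also found on rat macrophages, at 0.46, Lck at 0.35 and Cd3g at 0.27, the last lost without AI+E2 replicate 1 or Day 12 replicate 1.

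**Figure D5:**
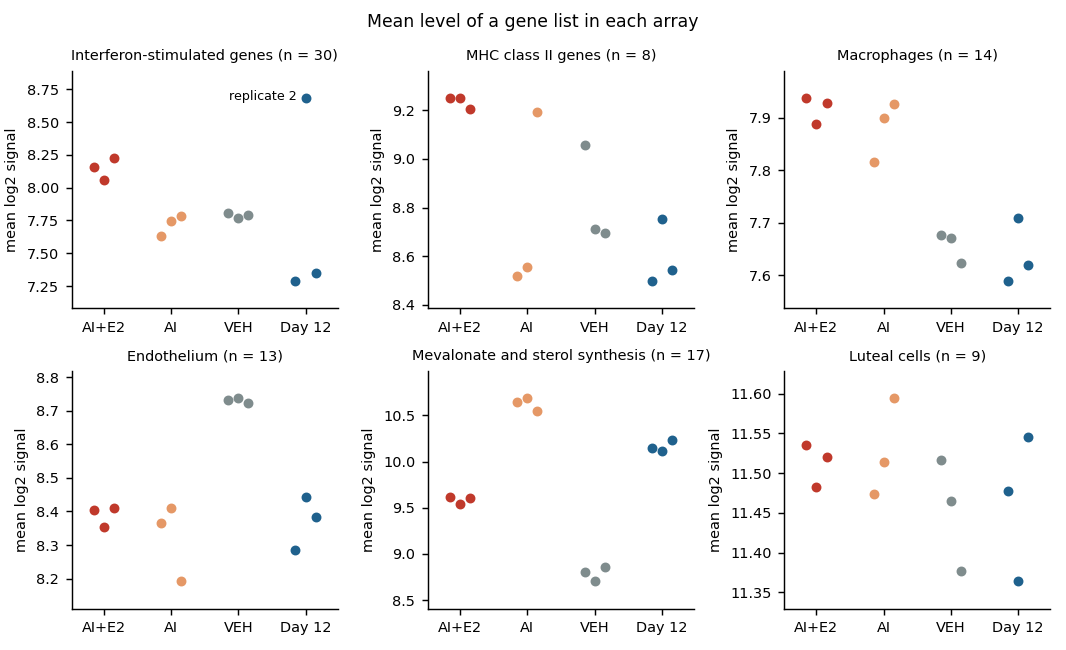
Mean log2 signal of 6 gene lists (y axis, own scale in each panel) in each array, with AI+E2, AI, VEH and Day 12 from left to right; each point is 1 array, 3 per group. Day 12 replicate 2 stands at 8.68 for interferon-stimulated genes, above all other arrays; endothelial genes are highest in VEH (8.72 to 8.74), and sterol genes in AI+E2 (9.54 to 9.62) lie between VEH and Day 12.

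Of 33 genes of the S, G2 and M phases 4 rose in AI+E2 against 11 in VEH (5 without Day 12 replicate 2), with none falling in either, and 3 were lower in AI+E2 than in VEH and none higher. Over all genes 7.52% rose in AI+E2 and 6.91% in VEH. The count of this list in AI+E2 was 1 without AI+E2 replicate 1 or 3 or Day 12 replicate 2, and 2 without Day 12 replicate 1. Top2a, a DNA topoisomerase of dividing cells, read 7.46, 7.24 and 7.44 in AI+E2 against 7.01, 6.80 and 7.15 on Day 12 (0.39). Of 17 G1 cyclins and inhibitors 5 rose and 2 fell: Cdkn1b, the inhibitor p27, read 9.73, 9.69 and 9.69 against 9.27, 9.21 and 9.50 (0.38, adjusted p = 0.0031) and was 0.58 above VEH, while Rbl2, a retinoblastoma relative, read 8.95, 8.87 and 8.97 against 9.37, 9.41 and 9.53 (−0.51). Cyclin D1, Ccnd1, was 0.26 lower, a call lost without any of the 6 arrays.

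Apoptosis genes had 3 rises and 3 falls of 28 (median −0.003), beside 7.52% rises and 4.58% falls over all genes. The 4 named next are those of smallest p, and the list's other calls are not named. Tnfsf10 and Bcl2l11, which favour death, rose by 1.08 and 0.45, and Cflar and Xiap, which block caspases, fell by 0.43 and 0.29, the last lost where a gene's probe sets were averaged. Xiap was 0.48 below Day 12 in VEH as well, and Tnfsf10 was 1.30 above VEH (adjusted p = 0.00042). Markers of follicles rose in 2 of 10 cases, with Amh, made by granulosa cells, at 7.61, 7.49 and 7.59 in AI+E2 against 7.21, 7.12 and 7.05 on Day 12 (0.44, adjusted p = 0.0025), and their part in the other results was not tested. Of 6 red cell genes 1 fell, Slc4a1 (−0.24, lost without any of 5 single arrays), and 3 fell without Day 12 replicate 2. Hbb read 9.52, 9.31 and 9.34 in AI+E2 against 10.28, 9.57 and 10.32 on Day 12 and was 1.33 below VEH.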

How the data were processed

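Affymetrix Rat Gene 1.0 ST arrays measured the luteal RNA of 12 pregnant Wistar rats, with 1 animal per array and 3 per group. The authors deposited log2 expression values made by RMA (background correction, quantile normalisation between arrays and median polish) in R 2.12.2, per the submitters' processing notes. Neither the labels nor the methods say which arrays were normalised together, and the files used give no scan date, so that no batch could be tested. The table held 29214 probe sets with no missing value, and no 2 arrays were identical.

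Of the probe sets, 15310 had 1 gene symbol in the platform annotation, 3 more were named from the study's tables, 323 had several symbols and 13581 none. For 527 genes with more than 1 probe set the one with the highest mean was kept, which left 14509 genes, with no filter on dim genes. A linear model with 1 mean per group was fitted to all 12 arrays with limma 3.58.1 (R 4.3.3, lmFit and eBayes, 8 residual degrees of freedom). P-values were adjusted by Benjamini-Hochberg over all 14509 genes, with a threshold of 0.05. Groups share 1 estimate of the spread. The number of arrays limits the precision: an exact permutation test of 3 against 3 arrays cannot give a two-sided p below 0.1, so no such test was used for single genes. On simulated data (10 simulations, AI+E2 against Day 12, 14509 genes) the fit recovered 92.4% of genes changed 1.5-fold and 99.2% of those changed 2-fold, and 5.7% of its calls were false. The simulated noise was independent between genes and of equal spread in all groups, with 50 genes changed per fold. In the real arrays genes can move together, as the interferon genes of Day 12 replicate 2 did, so these shares need not hold there.

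The comparison, its gene lists (48) and the tests were chosen with earlier results of these data known. The text names the 20 largest rises and falls whose arrays did not overlap, the 8 largest each way in each of the 2 patterns set against VEH, up to 4 members per list, those of smallest p, and all measured members of the lists of P4, estrogen and androgen, milk protein and luteal cell genes. The genes of the IGF system, relaxin, the estrogen receptors and cyclin D1 that the text gives were in the rule too. Mvk, Car12, Cxcl12, Tef, Pdgfra, Usp18, Mx2, Herc6 and the macrophage markers Csf1r, Itgam, Cd163 and Cd14 were named after their values were seen. Promoter sequences were read from RefSeq's table for rat build GRCr8. Alternatives were other probe set rules, scalings, filters, tests and sets of arrays. The methods' t-test was run on the same values, and the study's own comparisons were not used.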

Additional observations from a re-analysis of the deposited data

How the results depend on the processing

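The 1755 genes of AI+E2 against Day 12 became 362 (228 higher and 134 lower) by the methods' t-test with Benjamini-Hochberg adjustment, and 1123 to 1771 with 1 array left out, the lowest without AI+E2 replicate 1. Before adjustment that t-test gave 2998 genes at its threshold. The 79 genes changed at least 2-fold became 130 (89 and 41) where all probe sets were tested, named or not, and 77 to 98 with 1 array left out. AI+E2 against VEH gave 566 genes by the methods' t-test, against 1888, and 1253 to 1605 with 1 array left out. VEH against Day 12 gave 917 in a fit on those 2 groups alone and 57 by the methods' t-test, against 1472. The cause was not tested. After a new quantile normalisation the difference of Star was −0.159, against 0.003. Gene lists had fewer calls by the methods' t-test too. It gave 2 rises of 39 respiratory chain genes, 1 of 14 macrophage markers, 3 of 8 MHC class II genes and 4 of 22 fatty acid oxidation genes. No gene of P4 synthesis or P4 inactivation passed it. Of 249 named genes 165 passed the limma test, and 96 of them lost it under 1 or more of 16 settings, 92 by the methods' t-test and 28 with 1 array left out. A further 33 passed it under some setting only. Same-numbered arrays of AI+E2 and Day 12 correlated in their deviations at −0.07, 0.14 and 0.34 and so were not treated as pairs. With the replicate number as a block 1544 genes (988 and 556) passed the test, 79 of them at 2-fold. Values of genes near the array background, and of near-identical family members, are the least certain.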
